A study of Mus musculus with 24 samples.

Results

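Distal chromosome 1 of the NZB mouse is a lupus susceptibility region that holds the Ifi200 gene cluster and, proximal to it, the gene of the inhibitory IgG receptor Fcgr2b. The genes described here are Ifi202b, Ifi203, Ifi204, Ifi205, Mndal, Mnda, Aim2 and Fcgr2b, taken by symbol from the deposited expression table through the GENCODE vM21 annotation of GRCm38. Of these 8 symbols, 7 have a row among the 15323 genes of the table. Mnda has none, and in RefSeq it is a synonym of Ifi211, which is in the table and is described with the rest of the family. A further 7 genes of the same family are in the table, namely Ifi206, Ifi207, Ifi208, Ifi209, Ifi211, Ifi213 and the pseudogene Ifi203-ps.

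The study measured polyadenylated RNA in liver (median lobe) and heart (left ventricle) of male mice aged 10 weeks. The 4 genotypes are written nuclear genome first and mitochondrial genome (mtDNA) second: BL/6J:C57 and NZB:NZB carry both genomes of C57BL/6 or of NZB, while BL/6J:NZB and NZB:C57 are conplastic, with the mtDNA of the other strain brought onto a nuclear genome by 10 generations of backcrossing. Each genotype had 12 animals, combined into 3 pools of 4, which gave 3 libraries per genotype and tissue and 24 in all. The mice carry no transgene and received no treatment that the sample labels name.

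The Ifi200 genes encode PYHIN proteins, which pair a pyrin domain for protein contact with a HIN domain that binds DNA, and many of them are induced by interferon. AIM2 senses double-stranded DNA in the cytosol and assembles an inflammasome through the adaptor Pycard, whereas p202, the product of Ifi202b, lacks the pyrin domain and acts as an inhibitor of AIM2. NZB is known for high Ifi202b expression and C57BL/6 for very low expression. Fcgr2b carries an inhibitory motif that recruits phosphatases and restrains B cell and myeloid activation by IgG immune complexes, and in liver most of it sits on sinusoidal endothelial cells.

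In GRCm38 all members lie on chromosome 1. Fcgr2b spans 170958617 to 170976547 on the minus strand and Aim2 173350879 to 173466040 on the plus strand. Ifi204 (173747293 to 173766943), Mndal (173849126 to 173942491), Ifi203 (173920407 to 173942672), Ifi202b (173962568 to 173982744) and Ifi205 (174011998 to 174031810) follow on the minus strand. The annotated span of Mndal overlaps Ifi203 and contains Ifi211 on the same strand. Of the 14 family and member genes, 12 have a promoter window of 250 bases before to 50 bases after the start in the RefSeq GRCm38.p6 table. These RefSeq starts do not all lie at the ends of the GENCODE spans given above, as for Ifi202b and Mndal. The core of the interferon-stimulated response element, searched on both strands as GAAA, any 2 bases and GAAA, was found in 9 of the 14 windows of these genes, which belong to 8 of the 12 genes, against 3.443% of the 32851 windows of the same length. The matching stretches are shown because these genes share them and Ifi202b, Aim2, Fcgr2b and Ifi209 have no match in their windows. They read 5′ to 3′ on the strand of each gene, with the core in capitals and 15 bases on either side.
Ifi203, chr1:173942503-173942542, minus strand: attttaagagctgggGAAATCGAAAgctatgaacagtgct
Mndal, chr1:173880199-173880238, minus strand: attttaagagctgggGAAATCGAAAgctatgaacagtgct
Ifi205, chr1:174031865-174031904, minus strand: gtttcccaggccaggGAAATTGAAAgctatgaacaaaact
Ifi211, chr1:173913059-173913098, minus strand: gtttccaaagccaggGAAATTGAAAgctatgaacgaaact
Ifi207, chr1:173741826-173741865, minus strand: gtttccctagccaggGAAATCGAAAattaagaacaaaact
Ifi206, chr1:173491334-173491373, minus strand: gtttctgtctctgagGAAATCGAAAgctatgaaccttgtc
Ifi208, chr1:173673592-173673631, plus strand: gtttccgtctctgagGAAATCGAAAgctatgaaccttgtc
Ifi213, chr1:173599321-173599360, minus strand: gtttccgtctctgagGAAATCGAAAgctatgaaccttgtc
In these stretches 20 of 40 positions are identical in all 8 genes, and the least similar pair shares 24. Ifi203 and Mndal have the same 40 bases, as have Ifi208 and Ifi213.

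The 250 bases before the RefSeq start of Ifi202b are shown. The gene was chosen as the one cluster gene with much higher RNA in NZB in both tissues. The capitals mark a match to TTCNNNGAA, the letters of the interferon-gamma activated site, which 8.298% of all windows hold. This is the C57BL/6J reference allele, and the NZB allele is not analysed here.
Ifi202b, chr1:173982845-173983094, minus strand: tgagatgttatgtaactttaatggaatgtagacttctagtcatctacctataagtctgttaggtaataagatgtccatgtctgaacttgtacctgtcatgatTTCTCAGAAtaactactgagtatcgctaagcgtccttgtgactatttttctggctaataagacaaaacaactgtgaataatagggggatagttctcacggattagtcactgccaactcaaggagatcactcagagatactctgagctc

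Values are the authors' normalised read counts, and differences are log2 ratios of (value + 1) with their standard error (SE) and an adjusted p, from limma with Benjamini-Hochberg adjustment over all genes tested. A fold change on this scale is understated for genes with low values. Liver libraries held 7294525 to 34974268 reads and heart libraries 3714278 to 12949956, so that 1 read is worth 0.0398 to 0.194 in liver and 0.0716 to 0.221 in heart. The 3 NZB:C57 hearts stood apart, with 33.4% to 34.1% of reads in their top 20 genes against 11.5% to 14.5% in the other 9 hearts. For the members, each nuclear comparison is therefore also given with NZB mtDNA, a difference that does not use them. For other genes some results are given only as a mean over both mtDNAs, which in heart uses these 3 libraries. The NZB:C57 hearts also remain in the limma fits that include heart, and so in the shared spread behind each SE and adjusted p. The changes from NZB:NZB to NZB:C57 in liver and heart ran against each other (r = -0.871 across 7550 genes, which are not independent replicates). All nuclear comparisons align NZB reads to a C57BL/6J reference, so loss of RNA, a missing gene and sequence that no longer aligns cannot be told apart where NZB values are near 0. The sample titles number the BL/6J pools as mix and the NZB pools as rep, and a difference in handling behind that naming, if any, cannot be told apart from an effect of the nuclear background.

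Ifi202b RNA was present in all NZB libraries and nearly absent from BL/6J libraries, in both tissues and with either mtDNA. In liver all 6 BL/6J libraries read 0. The NZB:NZB livers read 13.98, 11.99 and 11.83, and the NZB:C57 livers 8.31, 4.46 and 5.27. The groups are separated by the whole range of their values, and the lowest NZB liver, at 4.46, lies far above the value of 1 read. The 543 NZB reads against 0 make Ifi202b at least 303-fold higher in NZB livers, taking a floor of 3 reads over the BL/6J group, and at least 153-fold with NZB mtDNA alone. The log2 difference was 3.76 (SE 0.19, limma adjusted p = 3.76e-09) with NZB mtDNA and 3.27 (SE 0.13, limma adjusted p = 2.21e-10) as a mean over both mtDNAs.

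In heart, Ifi202b read 0 in 5 of the 6 BL/6J libraries and 0.143, which is 2 reads, in BL/6J:NZB replicate 3. The NZB:NZB hearts read 16.1, 12.5 and 13.0, and the NZB:C57 hearts 24.6, 27.8 and 34.4. The ratio of depth-scaled reads was 535 (95% exact counting interval 148 to 4421), an interval that covers counting error only. With NZB mtDNA alone it was 196 (interval 53.8 to 1622). With NZB mtDNA the difference was 3.82 on the log2 scale (SE 0.17, limma adjusted p = 1.2e-11). Ifi202b shares 1.2% of its 31-base stretches with other annotated transcripts of the C57BL/6J reference. NZB sequence is not part of this share, and the assignment of Ifi202b reads between family members was not tested. The BL/6J:NZB line, whose mtDNA comes from NZB, had the near-absent Ifi202b of the BL/6J nuclear genome in all 6 libraries.

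The summed level of 10 cardiomyocyte markers was 0.438 to 1.15 in BL/6J livers, 52.0 to 176 in NZB:NZB livers, 160 and 128 in NZB:C57 livers 2 and 3, and 0.549 in NZB:C57 liver 1. All 10 markers were higher in NZB livers as a mean. The NZB:NZB livers held 0.543%, 0.297% and 0.161% of the level in hearts, and the same share of heart Ifi202b comes to 0.0754, 0.0412 and 0.0223, beside the measured 13.98, 11.99 and 11.83. In NZB:C57 liver 1, with markers in the BL/6J range, Ifi202b read 8.31.

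**Figure D1:**
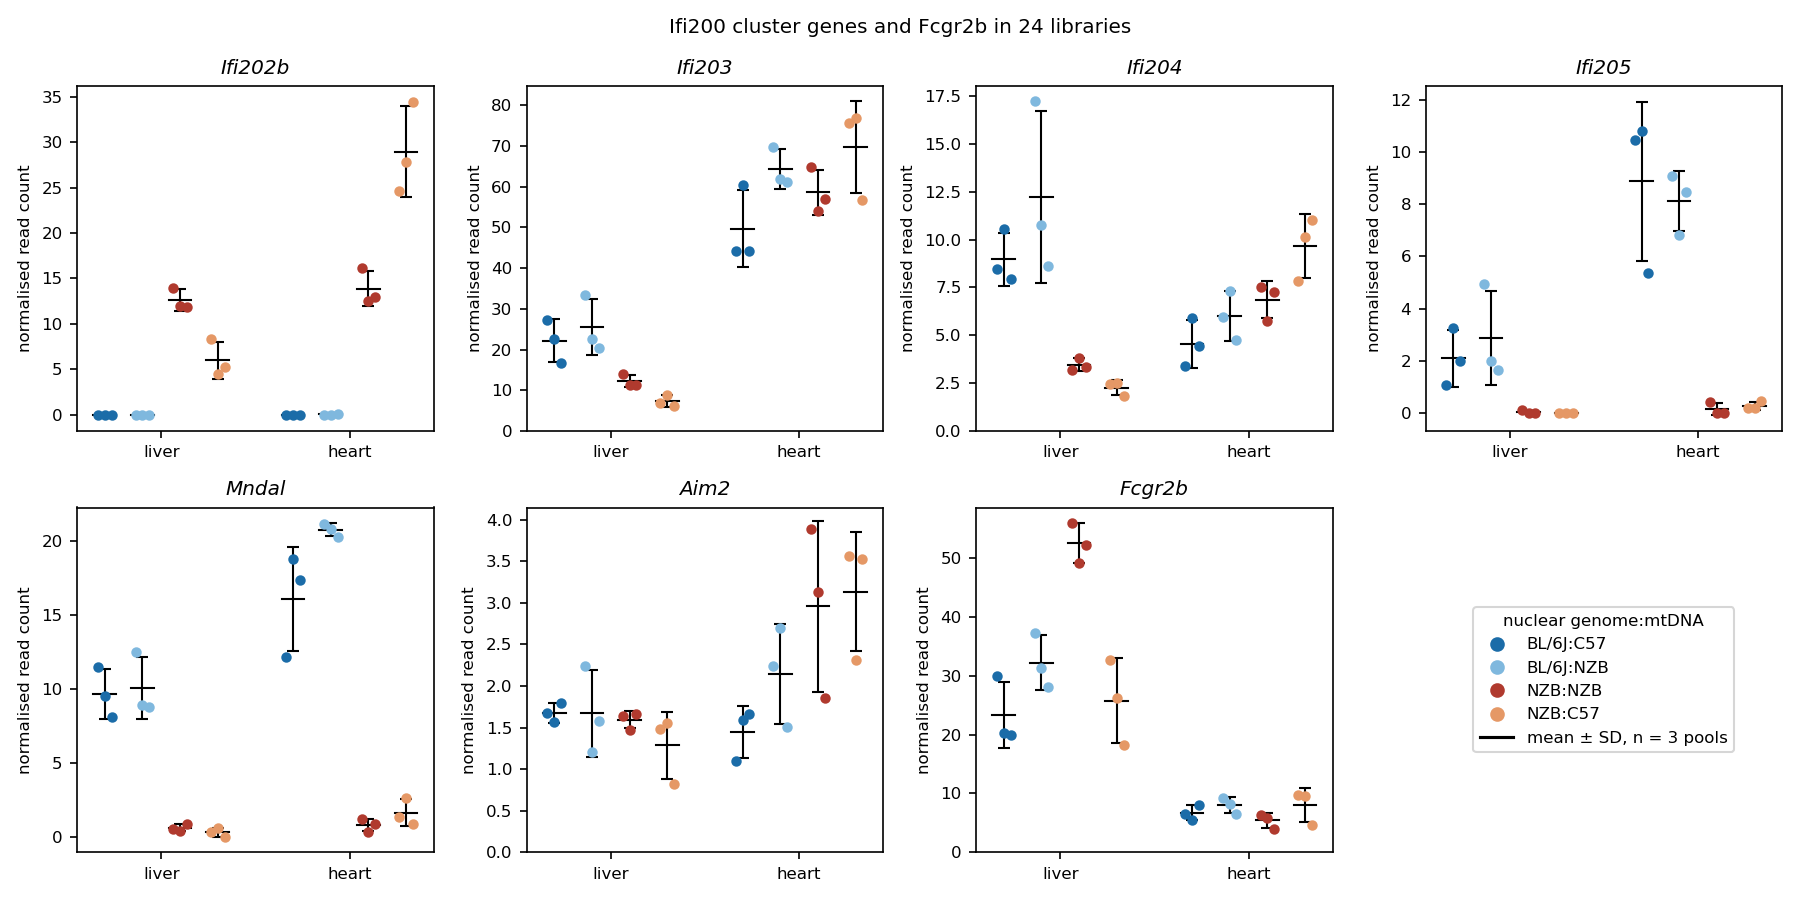
Normalised read count of each of the 7 genes in every library, by genotype, for liver and heart; points are libraries (pools of 4 animals), horizontal lines the mean and error bars the SD of the 3 libraries per group. Ifi202b sits at 0 in all 6 BL/6J livers and between 4.46 and 13.98 in the 6 NZB livers, while Mndal and Ifi205 show the opposite order in both tissues.

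Mndal and Ifi205, which encode other PYHIN proteins of the cluster, had the reverse pattern, with low reads in every NZB library. Mndal read 11.5, 9.48 and 8.08 in the livers of BL/6J:C57, and those of BL/6J:NZB gave 12.5, 8.94 and 8.78. The NZB:NZB livers read 0.548, 0.393 and 0.885, and the NZB:C57 livers 0.314, 0.582 and 0. No NZB liver reached 1, and no BL/6J liver fell under 8. The depth-scaled reads were 20.6 times lower in NZB livers (interval 13.9 to 32.0), with a log2 difference of -2.78 with NZB mtDNA (limma adjusted p = 3.32e-07).

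In heart, Mndal read 12.1, 18.8 and 17.4 with BL/6J:C57, and the BL/6J:NZB libraries gave 21.2, 20.8 and 20.3. It read 1.19, 0.348 and 0.845 in NZB:NZB and 1.36, 2.64 and 0.883 in NZB:C57. The groups again did not overlap, and the reads were 22.7 times lower in NZB:NZB than in BL/6J:NZB hearts (interval 14.9 to 36.6) and 8.32 times lower with C57 mtDNA (interval 6.20 to 11.4). The log2 difference with NZB mtDNA was -3.63 (limma adjusted p = 2.28e-09). Of the 31-base stretches of Mndal, 28.7% also occur in other transcripts, so part of its NZB reads may belong to a relative.

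Ifi205 values lay higher in BL/6J hearts than in BL/6J livers on the authors' scale. BL/6J:C57 hearts read 10.5, 10.8 and 5.36, and BL/6J:NZB hearts 9.09, 6.83 and 8.45. NZB:NZB hearts read 0.397, 0 and 0, and NZB:C57 hearts 0.170, 0.165 and 0.442. The 11 NZB heart reads against 434 made Ifi205 41.9 times lower (interval 23.2 to 84.5), and the log2 difference with NZB mtDNA was -3.02 (limma adjusted p = 3.52e-08). In liver it read 1.06, 3.24 and 1.99 with BL/6J:C57, and the BL/6J:NZB values were 4.94, 1.98 and 1.66, while the 6 NZB livers held 1 read in all, in NZB:NZB replicate 1 (131 times lower, interval 23.2 to 5190). Its liver difference with NZB mtDNA was -1.81 (limma adjusted p = 0.000581), and 22.1% of its 31-base stretches are shared, mostly with Ifi211.

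Among the further family genes, Ifi206 and Ifi213 were near 0 in the same way. Ifi213 averaged 4.65 ± 0.928 (SD, n = 3) in BL/6J:C57 livers, 5.04 ± 1.61 in BL/6J:NZB, 0.259 ± 0.142 in NZB:NZB and 0.117 ± 0.103 in NZB:C57 livers. Its reads were 23.7 times lower in NZB livers (interval 13.1 to 47.9), and in NZB hearts the interval of the ratio was 10.3 to 44.6 (29.4 times lower with NZB mtDNA, interval 9.76 to 145). Ifi206 had 2 reads in NZB livers against 169 (50.5 times lower, interval 13.8 to 420, and 28.3 times lower with NZB mtDNA, interval 7.54 to 238) and 4 in NZB hearts against 55 (14.6 times lower, interval 5.39 to 55.4). The log2 differences of Ifi213 with NZB mtDNA were -2.24 in liver (limma adjusted p = 2.58e-06) and -2.06 in heart (limma adjusted p = 4.02e-07).

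Ifi203 and Ifi204 fell in NZB livers but not in NZB:NZB hearts. Ifi203, the most abundant member in heart per kilobase in the BL/6J groups, read 27.2, 22.6 and 16.8 in BL/6J:C57 livers and 33.3, 22.6 and 20.4 in BL/6J:NZB livers. It read 14.1, 11.4 and 11.3 in NZB:NZB and 6.98, 8.93 and 6.09 in NZB:C57 livers. The highest NZB liver, at 14.1, was under the lowest BL/6J liver, at 16.8. The log2 difference with NZB mtDNA was -0.97 (limma adjusted p = 0.00308). In heart it read 69.9, 61.9 and 61.3 in BL/6J:NZB and 64.9, 54.1 and 56.96 in NZB:NZB, and these groups overlapped (log2 difference -0.13, limma adjusted p = 0.468). BL/6J:C57 hearts read 44.1, 60.6 and 44.3 and NZB:C57 hearts 75.6, 76.8 and 56.7, a log2 difference of 0.48 (limma adjusted p = 0.00634) that turned to -0.096 under scaling to library totals. The NZB effect on Ifi203 differed between heart and liver by 1.40 on the log2 scale as a mean over both mtDNAs (SE 0.18, limma adjusted p = 3.4e-06) and by 0.84 with NZB mtDNA (SE 0.26, limma adjusted p = 0.0287). The latter lost its call without BL/6J:NZB liver replicate 1 (0.64, adjusted p = 0.0918) and without NZB:NZB liver replicate 2 or 3, BL/6J:NZB heart replicate 2 or 3 or NZB:NZB heart replicate 1 (0.77 to 0.81).

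Ifi204, whose product p204 has pyrin and HIN domains and takes part in DNA sensing, read 17.3, 10.7 and 8.64 in BL/6J:NZB livers and 3.20, 3.83 and 3.32 in NZB:NZB livers. With C57 mtDNA the livers read 8.46, 10.5 and 7.92 for BL/6J and 2.43, 2.52 and 1.81 for NZB. The liver groups did not overlap, and the log2 difference with NZB mtDNA was -1.52 (limma adjusted p = 0.000106). Hearts read 5.96, 7.31 and 4.73 in BL/6J:NZB and 7.55, 5.74 and 7.27 in NZB:NZB, which overlap (log2 difference 0.17, limma adjusted p = 0.525). With C57 mtDNA the hearts read 3.37, 5.88 and 4.43 for BL/6J and 7.81, 10.2 and 11.04 for NZB, a log2 difference of 0.95 (limma adjusted p = 0.000634) that rests on the NZB:C57 hearts and was 0.45 (adjusted p = 0.0551) under scaling to library totals. The nuclear effect on Ifi204 differed between heart and liver by 1.69 with NZB mtDNA (SE 0.29, limma adjusted p = 0.000239). Ifi204 shares 34.0% and Ifi203 21.6% of their 31-base stretches with other transcripts, mainly Ifi211 and Ifi203-ps.

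Aim2, the DNA sensor, had low values that differed little between genotypes in liver and had higher means in NZB hearts. Its depth-scaled reads were 1.84 times higher in NZB hearts (interval 1.41 to 2.42, counting error only). With NZB mtDNA alone they were 1.64 times higher (interval 1.14 to 2.37). In NZB livers they were 1.13 times lower (interval 0.860 to 1.51). Livers read 1.67, 1.56 and 1.79 in the BL/6J:C57 group, 2.24, 1.203 and 1.58 with BL/6J:NZB, 1.65, 1.47 and 1.66 in NZB:NZB, and 1.49, 1.55 and 0.823 in NZB:C57. The groups with NZB mtDNA overlapped (log2 difference -0.03, limma adjusted p = 0.933), and with C57 mtDNA the lowest BL/6J liver lay just above the highest NZB liver (-0.24, limma adjusted p = 0.367). BL/6J:NZB hearts read 2.24, 2.70 and 1.505 and NZB:NZB hearts 3.89, 3.13 and 1.86, again overlapping (0.32, limma adjusted p = 0.319). Hearts with C57 mtDNA read 1.09, 1.59 and 1.66 for BL/6J and 3.57, 2.31 and 3.53 for NZB (0.75, limma adjusted p = 0.0147), a call lost under scaling to library totals (0.37) and without BL/6J:C57 replicate 1 (0.64) or NZB:C57 replicate 1 (0.67) or 3 (0.68). The mean heart difference of 0.53 (SE 0.16, limma adjusted p = 0.0114) was no longer called when values were scaled to library totals (0.40, adjusted p = 0.0616).

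**Figure D2:**
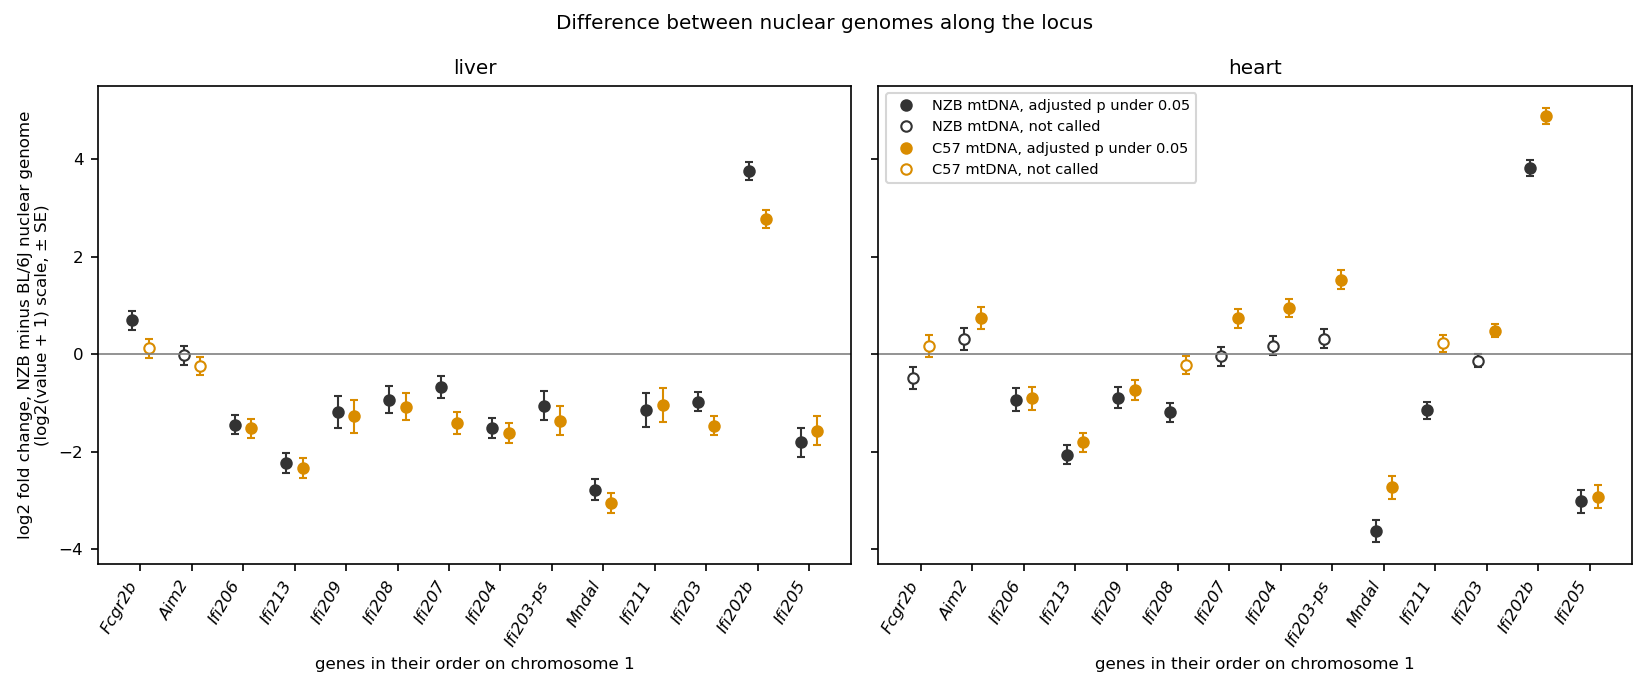
Log2 difference between the NZB and BL/6J nuclear genomes for the members and the other family genes, in liver and heart, on the log2(value + 1) scale; points are limma estimates with NZB or with C57 mtDNA, bars their standard errors, and filled points were called. Ifi202b lies above 0 in both tissues, and Mndal, Ifi205, Ifi206 and Ifi213 below 0 in both. Ifi203 and Ifi204 lie below 0 in liver, and in heart at -0.13 and 0.17 with NZB mtDNA and 0.48 and 0.95 with C57 mtDNA, where Ifi203 turned to -0.096 under scaling to library totals.

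With NZB mtDNA, 6 of the 7 members were called in liver (2 higher, Ifi202b and Fcgr2b, and 4 lower), where 24.9% of all genes tested were called, 12.9% higher and 11.9% lower. The members' median log2 difference was -0.97, and that of all genes -0.007. As a mean over both mtDNAs 2 were higher and 4 lower (41.8% of all genes called, 20.5% higher and 21.3% lower), and with C57 mtDNA 1 and 4 (27.9%, 13.1% and 14.8%). In heart with NZB mtDNA, 1 member was higher and 2 lower (29.1% of all genes called, 15.5% higher and 13.6% lower), with a median of -0.13 against 0.0236 for all genes. The mean over both mtDNAs gave 3 higher and 2 lower in heart (45.1%, 26.7% and 18.4%), and C57 mtDNA 4 and 2 (35.2%, 22.1% and 13.1%). The nuclear effect differed between heart and liver for 5 members as a mean (4 higher and 1 lower in heart, against 28.3% of all genes, 17% and 11.3%; edgeR and DESeq2 called 3, and gave Ifi202b and Ifi205 the opposite sign, not called) and for 4 with NZB mtDNA (2 and 2, against 15.5%, 7.32% and 8.2%). All 7 other family genes were lower in NZB livers in each of the 3 nuclear comparisons. In the mean comparison each of these calls held without any 1 library, while with NZB mtDNA only those of Ifi206 and Ifi213 did so. With NZB mtDNA, 5 of them were lower in heart (Ifi206, Ifi208, Ifi209, Ifi211 and Ifi213) and none higher. All 8 genes with the promoter core shown above were lower in NZB livers in the mean comparison, and 6 were lower in hearts with NZB mtDNA. Of the 4 without it, 2 were higher in liver (Ifi202b and Fcgr2b) and 1 lower (Ifi209). Ifi204 and Ifi203-ps have no promoter window, and both were also lower in NZB livers in the mean comparison (log2 differences -1.57 and -1.21). Any link between the core and these differences was not tested.

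Ifi203-ps was also lower in NZB livers and not called in NZB:NZB hearts. It averaged 2.46 ± 0.955 (SD, n = 3) in BL/6J:NZB livers and 0.644 ± 0.393 in NZB:NZB livers (log2 difference -1.06, limma adjusted p = 0.0182; -1.21 as a mean over both mtDNAs, limma adjusted p = 0.000432). In hearts it averaged 7.86 ± 0.739 and 10.4 ± 3.89 (0.31, limma adjusted p = 0.247). Its reads and those of Ifi203 can be exchanged, since 47.7% of its 31-base stretches occur elsewhere. Ifi211, whose shared portion is 78.9%, averaged 4.48 ± 1.07 and 1.59 ± 0.962 in the same liver groups and 5.12 ± 0.733 and 1.76 ± 0.462 in the heart groups.

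The make-up of the cluster differed between nuclear genomes with either mtDNA. Its summed level overlapped between them with NZB mtDNA and did not with C57 mtDNA, in both tissues. Sums and shares in NZB rest on reads aligned to the C57BL/6J reference and on its gene lengths. Values divided by gene length, which allow levels of different genes to be added, summed over the cluster to 16.8 ± 2.53 (SD, n = 3) per kilobase in BL/6J:C57 livers, 19.8 ± 6.24 in BL/6J:NZB, 13.8 ± 1.60 in NZB:NZB and 7.36 ± 1.49 in NZB:C57 livers. In hearts the sums were 24.03 ± 3.71, 29.7 ± 2.01, 27.5 ± 2.72 and 45.7 ± 1.502 in the same order. Ifi202b made up 54.0% ± 3.11 of the sum in NZB:NZB livers, 47.9% ± 10.1 in NZB:C57 livers, 29.7% ± 2.87 in NZB:NZB hearts and 37.2% ± 5.54 in NZB:C57 hearts. Mndal made up 15.9% in BL/6J:C57 livers and 18.4% in BL/6J:C57 hearts, and at most 1.22% in any NZB group. Ifi203 held 30.7%, 32.3%, 31.8% and 22.8% of the sum in hearts, in the order of genotypes above.

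**Figure D3:**
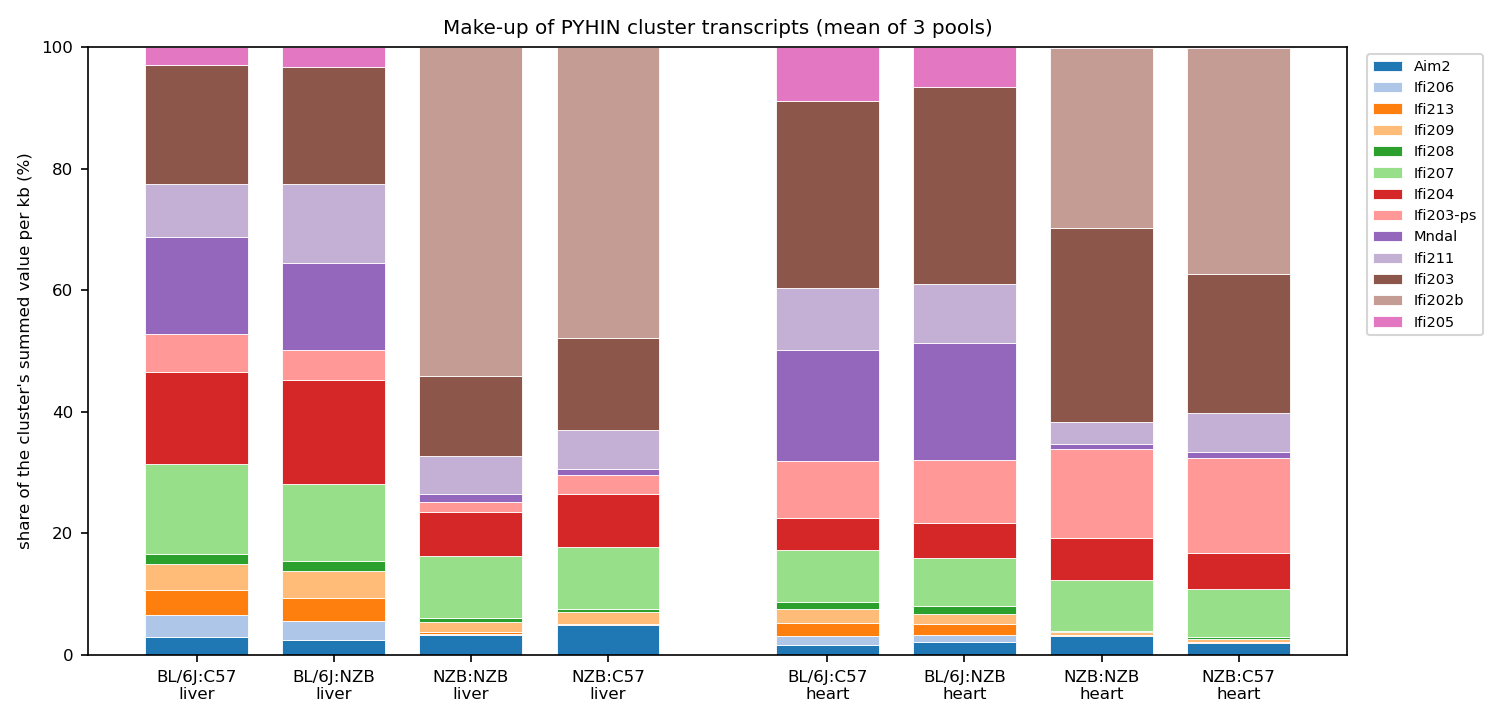
Share of the summed per-kilobase level of the Ifi200 cluster taken by each gene, in percent, as the mean of 3 libraries in each genotype and tissue. Ifi202b takes 54.0% of the sum in NZB:NZB livers and 29.7% in NZB:NZB hearts, and Mndal at most 1.22% with the NZB nuclear genome.

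The mtDNA comparison on the BL/6J nuclear genome gave no member past the limma threshold in either tissue (0.0076% of all genes called in liver, all higher, and 0.935% in heart, 0.427% higher and 0.507% lower). At an unadjusted p under 0.05, 1 member passed in each: Fcgr2b in liver (log2 difference 0.46 for NZB over C57 mtDNA, limma adjusted p = 0.486) and Ifi203 in heart (0.38, limma adjusted p = 0.148). edgeR and DESeq2 on recovered reads also called 0 members there. On the NZB nuclear genome, Ifi202b was lower with C57 mtDNA in liver (-0.99, SE 0.19, limma adjusted p = 0.00417) and higher in heart (1.004, SE 0.17, limma adjusted p = 0.000209). Fcgr2b was also lower in liver (-1.03, SE 0.19, limma adjusted p = 0.00372), and the other members were not called, giving 2 of 7 lower in liver (8.09% of all genes called, 3.65% higher and 4.44% lower) and 1 of 7 higher in heart (15.9%, 13% and 2.89%). Among the family genes, Ifi207, Ifi208, Ifi211 and Ifi203-ps were higher in NZB:C57 hearts, with Ifi211 at 1.18 (limma adjusted p = 6.43e-05). These values rest on the NZB:C57 libraries that stand apart, and the part of that shift in them was not tested. Under scaling to library totals the heart values of Ifi202b (0.34, adjusted p = 0.0968) and Ifi203-ps (0.15) were not called and Ifi207 turned to -0.022, and with a pseudocount of 0.1 neither Ifi202b value was called. The heart calls of Ifi207 and Ifi208 were each lost in several fits without 1 library, NZB:NZB replicate 1 among them (0.58 and 0.62). The size of the NZB nuclear effect differed between mtDNAs for Ifi202b (1.07, SE 0.23, limma adjusted p = 0.00443) and Ifi203 (0.62, SE 0.18, limma adjusted p = 0.0337) in heart, of which the first was lost under edgeR (adjusted p = 0.271) and DESeq2 (adjusted p = 0.445) and the second turned to -0.048 under scaling to library totals (11.2% of all genes called, 9.81% higher and 1.42% lower). No member was called in liver (2.49% of all genes, 1.82% and 0.669%), where 1 had an unadjusted p under 0.05 and edgeR and DESeq2 also called 0.

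Fcgr2b was highest in NZB:NZB livers. The livers read 29.9, 20.2 and 19.99 with BL/6J:C57, 37.2, 31.3 and 28.1 with BL/6J:NZB, 55.9, 49.1 and 52.2 in NZB:NZB and 32.7, 26.2 and 18.3 in NZB:C57. NZB:NZB lies above every other liver, while the other 3 groups overlap. The means were 52.4 ± 3.40 (SD, n = 3) in NZB:NZB, 32.2 ± 4.64 in BL/6J:NZB, 25.7 ± 7.22 in NZB:C57 and 23.4 ± 5.63 in BL/6J:C57. The difference with NZB mtDNA was 0.69 (SE 0.19, limma adjusted p = 0.0179). It lost its call in 3 of 12 fits that left out 1 library, namely BL/6J:NZB replicate 2 or 3 or NZB:NZB replicate 1, with an adjusted p of up to 0.0749. With C57 mtDNA it was 0.12 (limma adjusted p = 0.682). The mean over both mtDNAs was 0.41 (SE 0.14, limma adjusted p = 0.0283) and kept its call in only 4 of 12 such fits.

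In heart, Fcgr2b read 6.56, 5.56 and 8.13 with BL/6J:C57, 9.24, 8.26 and 6.52 with BL/6J:NZB, 6.43, 5.92 and 4.06 in NZB:NZB and 9.76, 9.57 and 4.64 in NZB:C57. The highest NZB:NZB heart, at 6.43, lay just under the lowest BL/6J:NZB heart, at 6.52, while the groups with C57 mtDNA overlapped. The difference with NZB mtDNA was -0.49 (limma adjusted p = 0.124; 0.0451 without NZB:C57 heart replicate 3). The nuclear effect on Fcgr2b differed between heart and liver by -1.18 with NZB mtDNA (SE 0.33, limma adjusted p = 0.0159), a call that was lost without NZB:NZB heart replicate 3 (adjusted p = 0.0520).

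In bulk tissue, more cells of a type and more RNA per cell cannot be told apart, so marker sums of the cells that carry Fcgr2b are given beside it. Of 10 sinusoidal endothelial markers, 9 are in the table and Cd209b is not. Their summed level in liver was 219 ± 61.1, 309 ± 51.4, 418 ± 30.2 and 254 ± 39.0 in BL/6J:C57, BL/6J:NZB, NZB:NZB and NZB:C57, which ranks the 4 groups as Fcgr2b does. With NZB mtDNA, 2 of 9 rose and none fell, among them Stab2 (0.81, limma adjusted p = 0.00176), a scavenger receptor of these cells. Fcgr2b per 100 of this sum was 10.8 ± 1.07, 10.5 ± 0.231, 12.6 ± 0.321 and 10.0 ± 1.51, so that the values of 12.2 to 12.8 in NZB:NZB stood above the 10.2 to 10.7 of BL/6J:NZB by much less than Fcgr2b itself. The 10 general endothelial markers summed to 141, 200, 282 and 133 in the same order, lowest in NZB:C57. Fcgr2b per 100 of that sum was 16.8, 16.1, 18.6 and 19.1, highest in NZB:C57. The Kupffer cell and macrophage sum in liver did not follow Fcgr2b, at 578, 653, 510 and 503 in the same order. Fcgr2b per 100 of it was 4.17, 4.95, 10.35 and 5.06. B and plasma cell markers were low (16.7, 14.9, 43.7 and 58.8) and were highest in NZB:C57, where Fcgr2b was not. Their sum includes immunoglobulin genes and also Cd22, which was lower in NZB livers in the mean comparison. In heart, Fcgr2b per 100 of the sinusoidal marker sum was 7.16 ± 1.15 in BL/6J:NZB and 2.93 ± 0.706 in NZB:NZB, and per 100 of the macrophage sum 2.55 ± 0.239 and 1.29 ± 0.233. These heart ratios did not overlap and ran opposite to those of liver, and 8 of 11 macrophage markers tested rose and 1 fell there. The part of cell composition in the Fcgr2b result was not tested beyond these values.

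**Figure D4:**
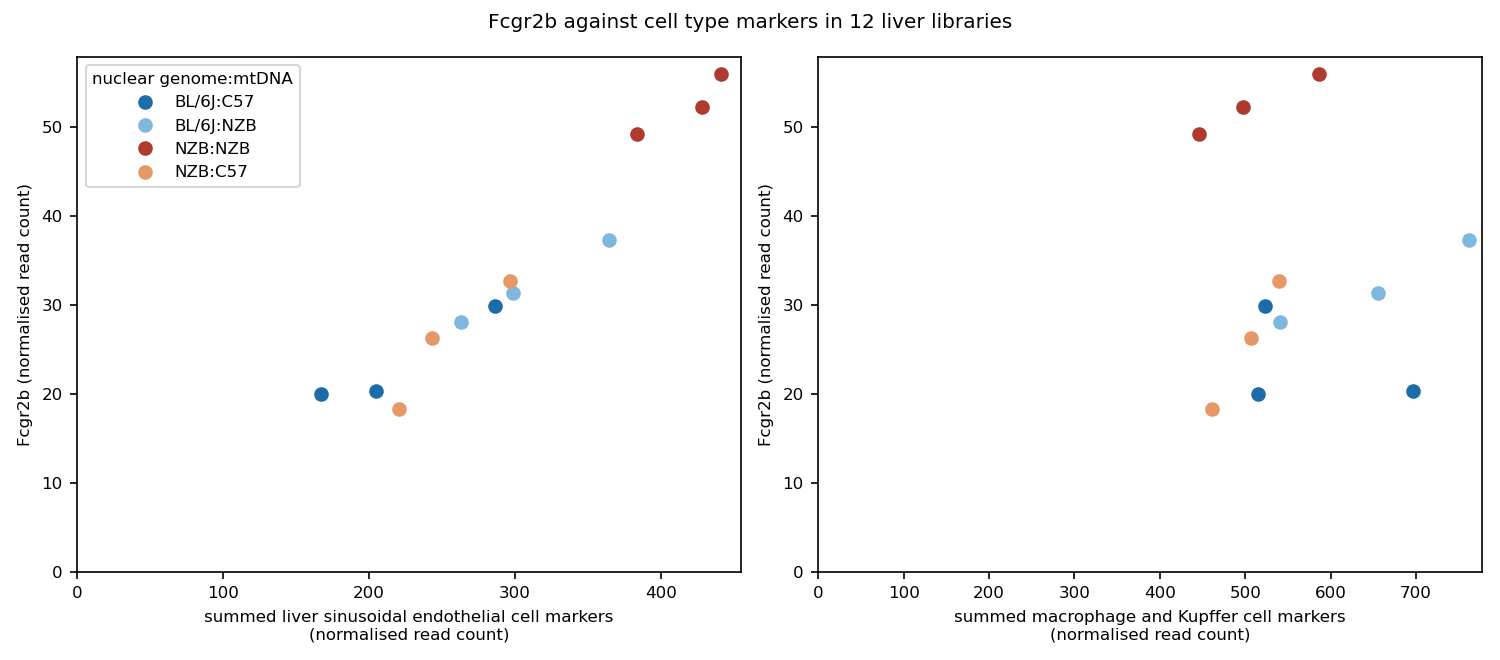
Fcgr2b in each of the 12 liver libraries against the summed level of sinusoidal endothelial and of macrophage markers, in normalised read counts; each point is 1 library, coloured by genotype. The NZB:NZB livers hold the highest Fcgr2b, 49.1 to 55.9, and the highest endothelial marker sums, 384 to 441.

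Pathway genes outside the cluster were taken from lists of Fc receptors, inhibitory signalling, DNA sensing and interferon response. Of 7 other Fc receptor genes, 2 fell and none rose in NZB livers with NZB mtDNA, and 4 fell as a mean over both mtDNAs (11.9% and 21.3% of all genes fell). The macrophage and Kupffer cell markers moved the same way in the mean comparison, with 8 of 14 lower, 2 higher and a median of -0.44, and their part in the counts of Fc receptor and inflammasome genes was not tested. Fcer1g, the signalling chain of the activating Fc receptors, fell by 1.27 in liver (limma adjusted p = 2.18e-06) and by 0.39 in heart (limma adjusted p = 0.00601) in the mean comparison. Fcer1g, Fcgr3 and Fcgr4 lie near Fcgr2b in the chromosome 1 interval described below and are counted there too. The part of the shared haplotype in their differences was not tested. Of 12 genes of inhibitory signalling 1 was called in liver, lower, and 4 in heart, 3 of them higher, shares under the 41.8% and 45.1% of all genes called. The liver gene was Cd22, an inhibitory receptor of B cells (-0.95, limma adjusted p = 4.33e-05), and Plcg2 was at 0.82 in heart (limma adjusted p = 1.38e-06).

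Of 17 tested genes of DNA sensing and the AIM2 inflammasome, 1 rose and 5 fell in livers with NZB mtDNA, and 1 rose and 8 fell as a mean, with a median of -0.42 (12.9% of all genes rose and 11.9% fell with NZB mtDNA, and 20.5% and 21.3% as a mean). Gsdmd, the pore-forming protein cut by inflammatory caspases, fell by 0.68 (limma adjusted p = 6.41e-07) in the mean. Il1b, whose product the inflammasome matures, fell by 1.32 (limma adjusted p = 9.48e-05), and Trex1, a DNA exonuclease, was at -0.67. Of 14 such genes in heart 2 rose and 4 fell in the mean comparison (median 0.03; 26.7% and 18.4% of all genes), and Il1b fell by 0.96 (limma adjusted p = 0.000138).

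More interferon-stimulated genes fell than rose with the NZB nuclear genome. In liver 1 of 37 rose and 17 fell in the mean comparison (median -0.24 against -0.0113 for all genes, of which 20.5% rose and 21.3% fell). With NZB mtDNA none rose and 11 fell in liver, where 12.9% of all genes rose and 11.9% fell. In heart 3 of 36 rose and 17 fell in the mean comparison (median -0.26 against 0.0262 for all genes, of which 26.7% rose and 18.4% fell). With NZB mtDNA 2 rose and 16 fell in heart, where 15.5% of all genes rose and 13.6% fell. Irf7, a master regulator of interferon induction, fell by 0.91 in liver (limma adjusted p = 2.54e-05) and 0.89 in heart (limma adjusted p = 1.17e-06), and Oasl1, which restrains its translation, fell by 1.197 in liver (limma adjusted p = 8.61e-06). Under scaling to library totals the heart mean count became 1 higher and 30 lower. That scaling shifted all genes downward, to 2262 higher and 6713 lower, with a median of -0.1985. The part of that shift in the count of interferon-stimulated genes was not tested.

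The interval from 1 Mb before Fcgr2b to 1 Mb past the last cluster gene was dense in differences apart from these genes. Without the members and the family, 28 of its 53 genes tested in liver were called (9 higher and 19 lower), 52.83% against 38.14% on the rest of chromosome 1 and 41.83% of all genes. Their median size of difference was 0.34 on the log2 scale against 0.20 on the rest of the chromosome. In heart 32 of 50 were called (12 higher and 20 lower), 64% against 45.47%, with a median size of 0.42 against 0.21. These counts are for the mean over both mtDNAs. With NZB mtDNA, 6 were higher and 12 lower in liver, 33.96% against 21.83% on the rest of the chromosome. In heart with NZB mtDNA, 8 were higher and 16 lower, 48% against 29.36%. Neighbouring genes share a haplotype and are not independent, and no test was made of these shares.

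Some neighbours also changed by large amounts, though less than Ifi202b. Casq1, a calcium buffer of muscle sarcoplasmic reticulum, lies 1.76 Mb proximal to Ifi202b and averaged 11.8 ± 0.715 (SD, n = 3) in BL/6J:C57 hearts, 14.0 ± 2.14 in BL/6J:NZB, 126 ± 11.03 in NZB:NZB and 167 ± 13.0 in NZB:C57 (mean difference 3.40, limma adjusted p = 1.99e-16). Pcp4l1 moved in opposite directions, from 7.98 ± 0.290 in BL/6J:NZB to 35.9 ± 6.51 in NZB:NZB livers and from 150 ± 9.41 to 55.2 ± 2.31 in hearts. As a mean over both mtDNAs, Olfml2b rose by 2.39 in heart (limma adjusted p = 2.74e-12). In the same comparison the pseudogene Tma7-ps rose by 2.90 in liver (limma adjusted p = 5.52e-08) and 2.89 in heart.

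**Figure D5:**
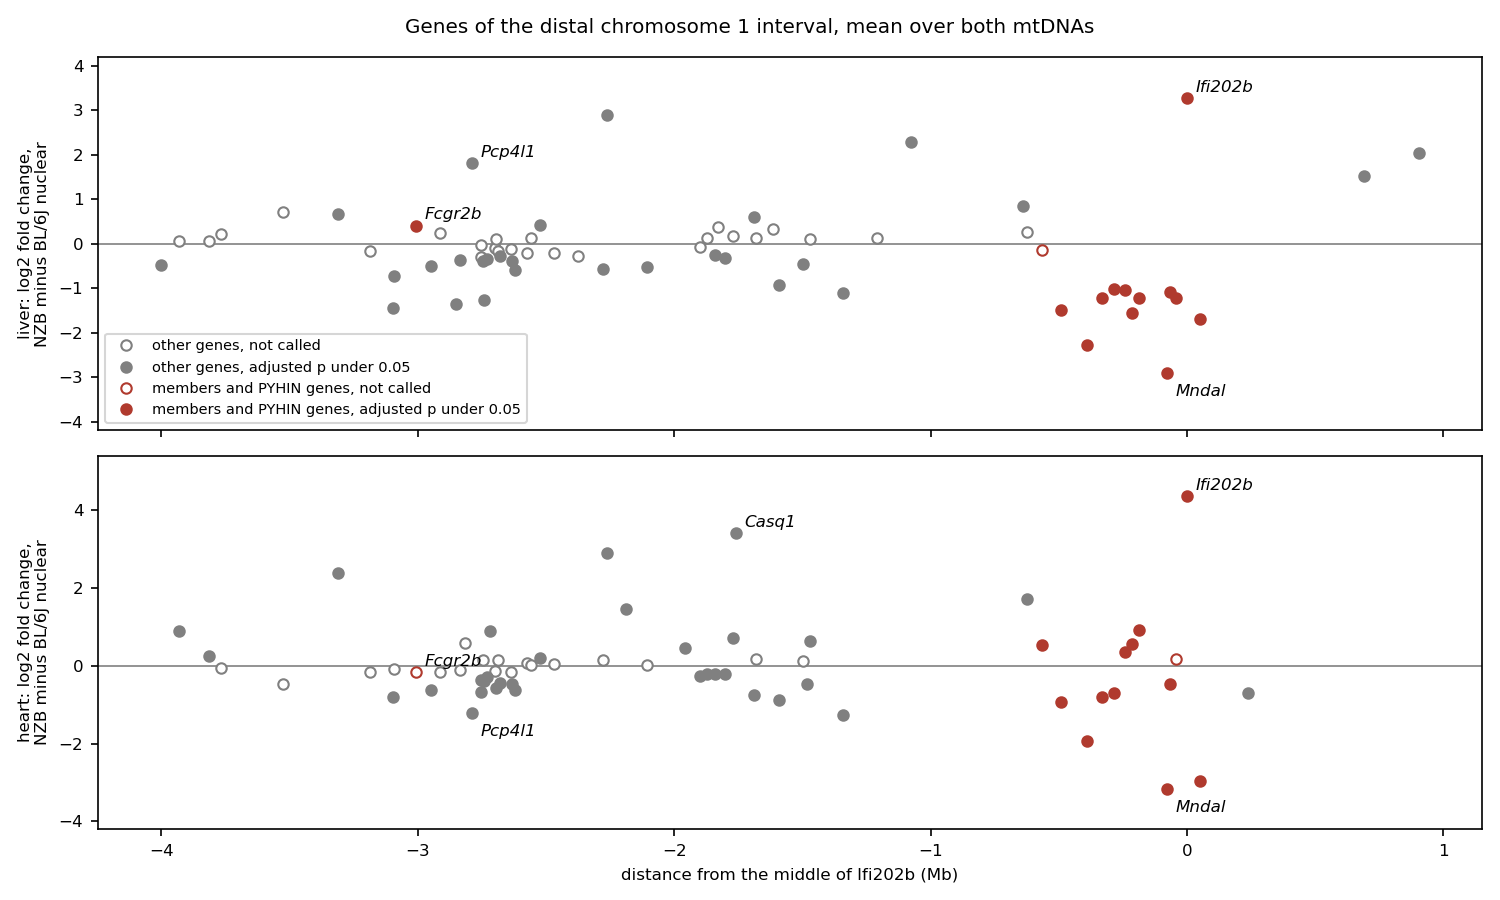
Log2 difference between the NZB and BL/6J nuclear genomes, mean over both mtDNAs, for the genes of the interval against their distance from Ifi202b in Mb; filled points were called, and liver and heart are drawn apart. In liver 28 of the 53 genes that are neither members nor family were called, and in heart 32 of 50.

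The genes whose values ran most like each member over the 12 libraries of a tissue were sought among 9545 liver and 9917 heart genes. Pearson correlations are given as a description, since the libraries fall into nuclear groups. Ifi202b in heart ran with Hamp2 (r = 0.997), Atp6v0c-ps2 (0.994) and Casq1 (0.994). Mndal ran with H2-Aa, an MHC class II chain, in liver (0.989) and with Pttg1 (0.989) and H2-Aa (0.986) in heart. Ifi203 ran in heart with Ifit2 (0.871), an interferon-stimulated gene. Fcgr2b ran in liver with Adgrl4 (0.987), an endothelial adhesion receptor, with the transcription factor gene Elk3 (0.978) and with Pxdn (0.976), and less closely in heart with Laptm5 (0.851).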

How the data were processed

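The deposited table holds 24 columns of signal per gene, which are read counts normalised by the authors; per the submitters' processing notes, cutadapt 1.2.1, RSEM 1.2.3, Bowtie2 2.0.6, edgeR and GRCm38 were used, in roles that are not stated. In every column 100% of the values are whole multiples of the value of 1 read, within 0.01 reads, so the reads were recovered. limma 3.58.1 (R 4.3.3) with trend was run on log2(value + 1), over genes at 1 or more in at least 3 libraries, with 12 libraries per tissue in 1 fit, 24 for differences between tissues, and a threshold of 0.05 after Benjamini-Hochberg adjustment. edgeR 4.0.16 and DESeq2 1.42.0 were run on recovered reads. In the mean nuclear comparison edgeR called 5479 genes in liver and 6409 in heart, against 5505 and 6226 by limma. Counting intervals are 95% exact, and floors take 3 reads.

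The genes named are the members, the other PYHIN genes, the 3 genes most alike to each member, up to 3 genes called by smallest p from each list, and the 3 such genes of the interval per tissue. The members and lists were chosen with earlier results of these data known. Same-numbered libraries of the BL/6J:NZB and NZB:NZB livers deviated together (correlations 0.202, 0.205 and 0.165), whereas other pairs of groups did not pass this check. The tests reported use no pairing, and a replicate block was run only as an alternative. The labels do not say whether the liver and heart pools share animals. The fit was tested on simulated counts. Within each group no library was a repeat of another: the smallest chi-square per gene between libraries of a group was 2.148. Libraries of different groups were not compared in this way.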

Additional observations from a re-analysis of the deposited data

Results flagged for a closer look

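The effect of the NZB nuclear genome differed between heart and liver beyond the limma threshold for these genes, and each value is the log2 difference of the heart effect over the liver effect. As a mean over both mtDNAs it was 1.09 for Ifi202b, 1.40 for Ifi203, 2.13 for Ifi204, -1.28 for Ifi205 and 0.67 for Aim2. With NZB mtDNA, where the NZB:C57 libraries enter only the shared spread, it was 0.06 for Ifi202b (limma adjusted p = 0.900) and 0.34 for Aim2 (limma adjusted p = 0.477), neither called. It was 0.84 for Ifi203, 1.69 for Ifi204, -1.21 for Ifi205 and -1.18 for Fcgr2b. The values for Ifi202b and Ifi205 have an arm near 0 reads, where log2(value + 1) compresses the difference; edgeR gave -0.25 for Ifi202b and 1.43 for Ifi205 in the mean comparison, neither called. The Ifi205 value with NZB mtDNA lost its call in 9 fits without 1 library, and was -1.21 (adjusted p = 0.0554) in a fit with no NZB:C57 libraries. The nuclear effect in heart also differed between mtDNAs, by 1.07 for Ifi202b and 0.62 for Ifi203, both of which use the NZB:C57 hearts.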

How the results depend on the processing

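Across 4321 alternative results, 4139 kept direction and call, 131 lost a call, 41 gained one and 10 reversed. The NZB-over-BL/6J calls of Ifi202b and Mndal in both tissues, and of Ifi203, Ifi204 and Ifi205 in liver, held in all alternatives run. Scaling to library totals gave a median of all genes of -0.64, in place of -0.004, in the mtDNA comparison on NZB nuclear hearts and of -0.52, in place of 0.0082, in the nuclear comparison of C57 mtDNA hearts, and moved the share of higher calls from 81.78% to 7.29% and from 62.73% to 15.64%. It reversed Ifi203 to -0.10 (nuclear, C57 mtDNA hearts), -0.46 (mtDNA, NZB nuclear hearts) and -0.048 (difference between mtDNAs, heart) and Ifi207 to -0.022 (mtDNA, NZB nuclear hearts), and changed members called from 6 to 3 in nuclear C57 mtDNA hearts, from 2 to 4 in NZB nuclear mtDNA livers, from 0 to 1 in the liver difference between mtDNAs and from 2 to 0 in the heart difference. A pseudocount of 0.1 gave 1, 0 and 1 members in the mtDNA comparison of NZB livers, of NZB hearts and in the heart difference between mtDNAs, and that difference also gave 1 with no filter and with edgeR. edgeR and DESeq2 gave 3 members, not 5, for the mean tissue difference, and reversed Ifi202b (-0.25 and -0.58) and Ifi205 (1.43 and 0.98, and with NZB mtDNA 0.69 and 0.90), where 1 arm is near 0 reads. Without 1 library the members called ranged from 0 to 1 in BL/6J hearts (mtDNA) and in the liver difference, from 1 to 3 in NZB hearts, from 1 to 4 in the heart difference and from 2 to 4 in the NZB mtDNA tissue difference. The replicate block gave 3 members, not 2, in the mtDNA comparison of NZB livers and 6, not 5, in the mean tissue difference. It kept 6 members called in the nuclear comparison of NZB mtDNA livers. A fit with no NZB:C57 libraries, chosen after seeing the data, called as many members in the comparisons it can make, with Mndal (-0.85) called in place of Ifi205 in the NZB mtDNA tissue difference. The cause of these changes was not tested. At these depths a gene under 3 reads cannot be told from 0. The read ratios of Ifi205 and Ifi206 in liver and of Ifi202b in heart have 1 arm under 3 reads. Their size is therefore uncertain, and only the lower end of each interval is informative.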
